A study of Mus musculus with 22 samples.

Results

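Olfactory receptors are G-protein-coupled receptors of the nose, encoded by a very large gene family of the mouse. Their genes lie in tandem clusters, and a mature sensory neuron expresses 1 allele of 1 gene while the others lie in heterochromatin that carries H3K9me3. The signal of a bound receptor passes through the G protein Gnal, the adenylyl cyclase Adcy3 and cyclic-nucleotide-gated channels. The genes described here are the 246 olfactory receptor genes, of 1420 on chromosomes 1 to 19 (17.3%), whose extent in the mm10 annotation lay within 2000 bp of a region of the deposited H3K9me3 or H3K27ac table that compares the C3 and OSKM lines. They comprised 179 protein-coding genes, 66 pseudogenes and 1 gene annotated as a miscellaneous RNA (Olfr915). The rule used positions of regions and no level of either mark, but every H3K9me3 region overlapped a peak in at least 1 library. Membership through H3K9me3 was thus not independent of the mark.

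The marks were mapped by chromatin immunoprecipitation with sequencing (ChIP-seq) in induced pluripotent stem (iPS) cells made from C57BL/6 mouse embryonic fibroblasts. H3K9me3 is a mark of heterochromatin and H3K27ac of active promoters and enhancers. The C2 line had received the zinc-finger artificial transcription factors ZFATF1, ZFATF2 and ZFATF3, and the C3 line ZFATF1, ZFATF2 and ZFATF4, each with Sox2, Klf4 and c-Myc. The OSKM line had received Oct4 with the same Sox2, Klf4 and c-Myc. The iPS cells had been given 100 nM 4-hydroxytamoxifen for an Oct4-MerCreMer reporter. The HA tag of the artificial factors was mapped in C2 cells 20 days after transduction, which still made the factors and had not completed reprogramming, and in Empty cells, the negative control with Sox2, Klf4 and c-Myc but no artificial factor. Each group had 2 libraries, and the labels do not say whether these came from separate cultures or clones, so p-values measure only the spread between these samples. The C2 and OSKM libraries shared a pair of inputs and C3 had its own, so a difference between inputs and a difference of C3 from the other lines cannot be told apart.

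Reads in the regions of the tables ranged from 3412599 to 8548902 per H3K9me3 library and from 7033486 to 17649231 per H3K27ac library. Across regions, log2 reads of any 2 libraries of a mark had a Pearson correlation of 0.907 to 0.961 for H3K9me3 and 0.818 to 0.962 for H3K27ac, and no libraries were identical. H3K27ac was present at all 8 pluripotency genes of a fixed list (Pou5f1, Sox2, Nanog, Esrrb, Zfp42, Tdgf1, Dppa5a, Fgf4). Their regions summed to 35192 and 21980 normalized reads in C3 and 39547 and 39253 in OSKM, with 1 gene lower in C3, and to 19775 and 14638 in C2 and 36396 and 36085 in OSKM, with 6 lower in C2. Of 5 endoderm genes (Gata4, Gata6, Sox17, Foxa2, Lamb1), 4 were higher in C3 and 3 in C2. Their summed H3K27ac was 3879 and 2160 normalized reads in C3 against 313 and 639 in OSKM, and 2028 and 947 in C2 against 289 and 588 in OSKM. Among 8 fibroblast markers 6 had an H3K27ac region, with sums of 294 and 287 in C3 and 179.9 and 282 in OSKM and no call, and Col3a1 and Postn were at 1 read in those libraries. Olfactory sensory neuron markers are given beside the signalling genes further on. The part of these marker differences in the results on receptors was not tested.

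H3K9me3 regions lay near 150 of the 246 receptor genes and H3K27ac regions near 130, with 34 genes near both. The tables differed in what such a region was. Every H3K9me3 region overlapped a peak in at least 1 library, whereas 41484 of the 135566 H3K27ac regions (30.6%) had no peak in any of the 6 libraries, and 93.4% of these were exactly 1001 bp wide. Of the 130 receptor genes near an H3K27ac region, 74 had a region without a peak as their highest, and 56 had a region with a peak. For 72 of the 130 the region was at 1 read, the lowest value in the tables, in all 6 libraries, against 4 of the 150 for H3K9me3. Counting regions with a peak only, 180 of the 246 genes had a mark and 26 had both, and in 20 of these 26 the regions of both marks overlapped.

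At a few genes a region lay on the annotated promoter, so that sequence can be set beside the marks. Of 78 genes with an H3K9me3 region and a promoter in the RefSeq table (GRCm38.p6, the assembly also called mm10, 250 bases before to 50 after the start), 4 had a region that overlapped the promoter, and of 35 genes with a peak-backed H3K27ac region 3 did. Whether the other regions lay in exons or introns was not analysed here. Olfr212 (MOR119-4) is shown because its promoter lay under regions of both marks and its H3K9me3 differed between lines. Olfr543 (MOR42-2, a class I receptor, the class that also occurs in fish) and Olfr94 (MOR256-32) are shown because H3K27ac covered their promoters and differed between C3 and OSKM. Olfr784 (MOR110-3) is shown because H3K9me3 covered its annotated promoter and an HA peak lay within 2000 bp of the gene. In Olfr784 the 50 bases after the annotated start begin with atg, so that start may be a start codon. The same holds for Olfr1388, another of the 4 genes with H3K9me3. Whether annotated starts are transcription starts was not checked, so H3K9me3 at the transcription start of Olfr784 is not shown. Sequences run 5′ to 3′ on the strand of the gene, and capitals mark motifs on either strand. One is the promoter box TATAAA. The others, TAATTA and the related TAATGA, are cores read by homeodomain proteins such as Lhx2.
Olfr212, chr6:116506266-116506565, plus strand: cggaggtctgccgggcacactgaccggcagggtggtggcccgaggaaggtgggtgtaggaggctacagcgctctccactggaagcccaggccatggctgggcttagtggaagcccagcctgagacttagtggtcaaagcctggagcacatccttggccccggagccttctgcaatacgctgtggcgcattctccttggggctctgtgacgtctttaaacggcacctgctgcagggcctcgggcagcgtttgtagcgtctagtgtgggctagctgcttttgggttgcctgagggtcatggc
Olfr543, chr7:102477853-102478152, minus strand: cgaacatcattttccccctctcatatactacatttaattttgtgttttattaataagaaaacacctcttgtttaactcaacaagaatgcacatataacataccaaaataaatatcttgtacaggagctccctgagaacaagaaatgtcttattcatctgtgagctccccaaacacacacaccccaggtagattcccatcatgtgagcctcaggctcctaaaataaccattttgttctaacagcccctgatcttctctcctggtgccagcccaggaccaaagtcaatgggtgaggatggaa
Olfr94, chr17:37197917-37198216, minus strand: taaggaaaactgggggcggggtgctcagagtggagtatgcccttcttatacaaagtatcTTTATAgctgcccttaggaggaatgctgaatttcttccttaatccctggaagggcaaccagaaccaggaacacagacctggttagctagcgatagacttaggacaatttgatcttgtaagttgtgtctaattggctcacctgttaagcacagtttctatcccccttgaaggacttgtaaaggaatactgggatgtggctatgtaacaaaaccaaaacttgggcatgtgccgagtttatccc
Olfr784, chr10:129387385-129387684, plus strand: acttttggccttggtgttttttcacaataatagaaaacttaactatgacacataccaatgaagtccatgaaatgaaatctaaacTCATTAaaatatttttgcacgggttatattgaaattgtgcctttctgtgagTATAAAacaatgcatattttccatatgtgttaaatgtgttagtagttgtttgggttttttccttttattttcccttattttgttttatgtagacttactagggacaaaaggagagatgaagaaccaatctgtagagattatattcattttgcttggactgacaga
The promoter of Olfr212 held 13 CG dinucleotides and 62.3% G and C, whereas those of Olfr543, Olfr94 and Olfr784 held 1, 3 and 1 CG and 40.7%, 45.0% and 30.7% G and C. The medians over the 153 promoters of the 246 genes were 1 CG and 37.3%. TATAAA occurred in 37.3% of those 153 promoters, in 41.8% of the 789 promoters of other receptor genes and in 13.6% of all 31396 promoters of chromosomes 1 to 19 in the table. The shares for TAATGA were 28.8%, 28.9% and 9.84%, and those for TAATTA 15.0%, 19.4% and 5.27%. The palindromic O/E motif, read by Ebf factors, was in 0 of the 153, in 0.634% of the other receptor promoters and in 0.920% of all. TAATTA and TAATGA share their first bases, and a match is a description of the letters only. Where an annotated receptor start is a start codon, as may be so at Olfr784, the shares describe sequence around that codon. They are then not comparable with shares at transcription starts of other genes. How many receptor promoters this concerns was not counted.

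In each library, a smaller share of receptor genes than of protein-coding genes lay within 2000 bp of a peak, and receptor genes were also shorter, with a median extent of 945 bp against 17491 bp. H3K9me3 peaks lay near 92 and 104 receptor genes in the C2 libraries, 150 and 89 in C3, and 131 and 140 in OSKM, which is 6.27% to 10.6% of the 1420, against 16.9% to 27.7% of protein-coding genes. Both C2 libraries lay below both OSKM libraries, while the C3 libraries lay on either side. H3K27ac peaks lay near 51 and 23 receptor genes in C2, 66 and 49 in C3, and 36 and 38 in OSKM, which is 1.62% to 4.65%, against 65.7% to 74.3% of protein-coding genes. Both C3 libraries lay above both OSKM libraries, and the C2 libraries lay on either side. The number of peaks over the whole genome also differed, with 69446 and 64028 in C2, 96055 and 56350 in C3, and 90392 and 93735 in OSKM for H3K9me3, and 116945 and 76915 in C2, 109671 and 109985 in C3, and 86571 and 87998 in OSKM for H3K27ac. For H3K9me3 the libraries with the most and the fewest peaks, both of C3, also had the most and the fewest receptor genes. For H3K27ac, C2 replicate 2 was lowest in both counts, whereas C2 replicate 1 had the most peaks and C3 replicate 1 the most receptor genes. The part of the number of peaks in the receptor counts was not tested.

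**Figure D1:**
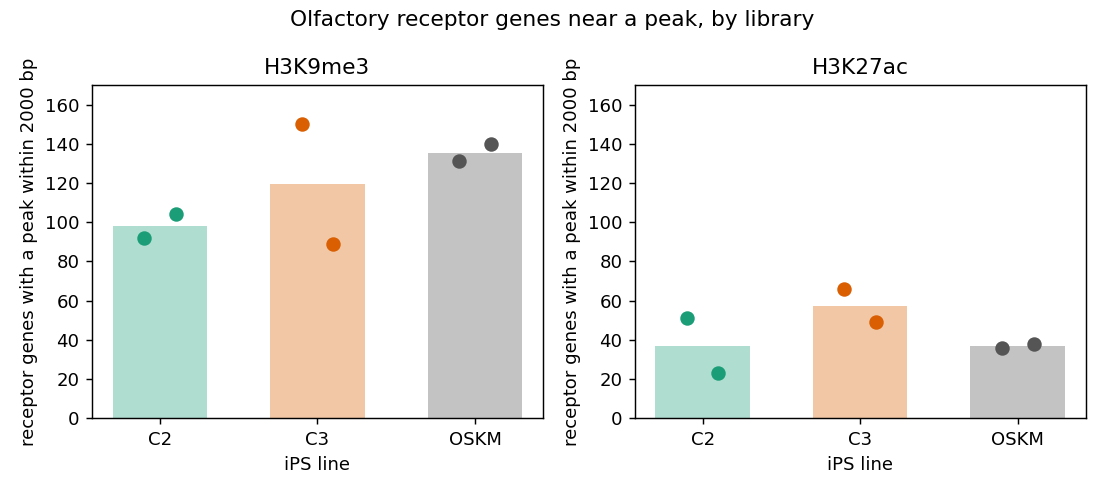
Number of olfactory receptor genes, of 1420, with a peak within 2000 bp in each library (points) and the mean of both libraries of a line (bars), for H3K9me3 and H3K27ac. H3K9me3 lay near 89 to 150 receptor genes per library and H3K27ac near 23 to 66, and the libraries of C3 (H3K9me3) and of C2 (H3K27ac) lay far apart.

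As a share of all reads in regions, the 187 H3K9me3 regions near receptor genes held 0.370% and 0.376% in C2, 0.414% and 0.414% in C3, and 0.337% and 0.341% in OSKM. The 165 H3K27ac regions held 0.0547% and 0.0473% in C2, 0.0677% and 0.0635% in C3, and 0.0392% and 0.0413% in OSKM. For both marks the lines did not overlap, with C3 highest and OSKM lowest. An exact two-sided permutation test of 2 libraries against 2 cannot give a p below 0.333.

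The 187 H3K9me3 regions near receptor genes had a median of 48.0 normalized reads (mean of the libraries over the tables of the mark), against 28.6 over all 68845 regions, and a median width of 1284 bp, against 972 bp. Per kilobase of region the medians were 46.0 and 37.6 normalized reads. A peak was called in all 6 libraries in 49.7% of the 187 regions, against 34.1% of all regions, and these differences were not tested. The values of genes below are those of the region of highest level near each gene. In that region a peak was called in both libraries of the line for 101 genes in C2, 96 in C3 and 127 in OSKM. The region overlapped the gene itself in 38 of the 150 genes and a gene outside the family in 6.

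Among the genes whose nearby region held the highest H3K9me3 were Olfr401, Olfr915, Olfr1374-ps1, Olfr212, Olfr838-ps1 and Olfr359-ps1. Olfr401 (MOR255-6, chr11:74121291-74122238) lay 613 bp from a region of 20269 bp (chr11:74122851-74143119), which also overlapped the transfer RNA gene n-TKctt5 and held 1511 and 1459 in C3 and 1235 and 1259.6 in OSKM, in normalized reads. C3 was above OSKM in both libraries, but this difference, 0.25 ± 0.08 (SE) as a log2 fold change, did not pass the test (adjusted p = 0.0780). In the table of C2 and OSKM the region held 1126 and 926 in C2 and 1107 and 1151 in OSKM, and the libraries overlapped. The pseudogenes Olfr1374-ps1, Olfr838-ps1 and Olfr359-ps1 had mean levels of 919, 556 and 522 normalized reads, a peak in all 6 libraries and no call in any comparison.

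In C3 against OSKM, H3K9me3 was lower at 6 receptor genes and higher at 1, of the 137 whose region passed the filter on low values (limma, Benjamini-Hochberg adjusted p under 0.05 over 51633 regions). Lower were the protein-coding Olfr212, Olfr318, Olfr1341 and Olfr1425, the pseudogene Olfr718-ps1 and Olfr915, and higher was Olfr406. Of these genes, Olfr212 alone had a region that overlapped the gene, and the other regions lay beside the gene. Over all regions tested 9.06% were called, 7.35% lower and 1.72% higher, beside 4.38% lower and 0.730% higher of the receptor genes. The receptor share was thus no larger than the background in either direction. The median log2 fold change of the receptor regions was 0.03, against -0.06 over all regions, and 0.14 under quantile normalization.

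Olfr718-ps1 (chr5:143137232-143138197) showed the largest of these differences, although no C3 or OSKM library had an H3K9me3 peak within 2000 bp of it. The sole such peak was in C2 replicate 2. Here and in what follows, levels are normalized reads of replicates 1 and 2 of each line, and brackets give the log2 fold change with its SE and the adjusted p of limma. Its region, 1841 bp away and overlapping the predicted gene Gm38734, held 80.1 and 45.6 in C3 against 163 and 169 in OSKM (-1.44 ± 0.27, adjusted p = 0.00622). The C3 libraries lay below both OSKM libraries, whereas the levels in the other table, 97.4 and 171 in C2 and 146 and 154 in OSKM, overlapped. At Olfr1425 (MOR239-7, chr19:12073695-12074630) the region 1705 bp away held 67.2 and 95.7 in C3 against 178 and 181 in OSKM (-1.15 ± 0.23, adjusted p = 0.00738). Olfr1341 (MOR258-1, chr4:118709409-118710347) had 92.2 and 63.8 in C3 against 165 and 129 in OSKM (-0.92 ± 0.25, adjusted p = 0.0389). No C3 library reached an OSKM library at either gene.

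Olfr318 (MOR285-1, chr11:58720069-58721094) had a broad region of 6186 bp with 303 and 299 in C3 against 476 and 432 in OSKM (-0.59 ± 0.13, adjusted p = 0.0116). Olfr915 (MOR167-4, chr9:38646590-38647522) had 1079 and 1096 in C3 against 1449.7 and 1393 in OSKM over 13399 bp (-0.39 ± 0.08, adjusted p = 0.0127), a small difference between libraries that lay close together within each line. The region of Olfr915 (chr9:38631379-38644777) lay outside the gene. A peak within 2000 bp of the gene was found only in C3 replicate 1 and OSKM replicate 1, so most of that level lay farther away. Olfr406 (MOR133-1, chr11:74269391-74270362), in the same cluster as Olfr401, had the opposite direction, with 139.6 and 137 in C3 against 79.9 and 83.6 in OSKM (0.75 ± 0.21, adjusted p = 0.0482). Its call sat close to the threshold. It was lost without each library in turn and when chromosome 8 was left out of the fit (adjusted p = 0.0519).

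Olfr212 (chr6:116506516-116517965) was the sole receptor gene whose H3K9me3 was called in C2 and in C3, comparisons that share the OSKM libraries. Its region of 4995 bp (chr6:116501626-116506620) covers the promoter shown above. It held 558 and 473 in C2 against 866 and 926 in OSKM (-0.80 ± 0.15, adjusted p = 0.0138). In the other table it held 721 and 617 in C3 against 966 and 1014 in OSKM (-0.57 ± 0.10, adjusted p = 0.00508), so both lines with artificial factors lay below both OSKM libraries. Neither call was made in the authors' deposited table, at an FDR of 0.0516 in C2 and 0.0849 in C3. Nor was either made under quantile normalization, where the log2 fold changes were -0.43 in C2 (limma, adjusted p = 0.164) and -0.34 in C3 (adjusted p = 0.0509), and the call in C2 was also lost without the filter on low values (adjusted p = 0.0617). H3K27ac at the same promoter was low, with 28.6 and 23.1 in C2 and 1.02 and 6.39 in OSKM (2.79 ± 0.90, adjusted p = 0.0834), and 15.9 and 8.73 in C3 and 1.10 and 6.95 in OSKM (1.65 ± 0.89, adjusted p = 0.224). C2 and C3 libraries were above those of OSKM there, and neither comparison passed the test.

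In H3K9me3 of C2 against OSKM, Olfr212 was the sole call among 137 receptor genes, beside a background of 3.29% of regions (2.9% lower and 0.389% higher). The other 5 genes with less H3K9me3 in C3 had log2 fold changes in C2 of -0.21 ± 0.27 (Olfr718-ps1), -0.85 ± 0.23 (Olfr1425), -0.44 ± 0.26 (Olfr1341), -0.67 ± 0.17 (Olfr318) and -0.41 ± 0.13 (Olfr915), none past the threshold. The median over the receptor regions was -0.11, against -0.15 over all regions, and its sign turned under quantile normalization (0.11), which moved the median of all regions by 0.12. Between C2 and C3, 0 of 137 receptor genes were called by limma, by edgeR or in the authors' deposited table, beside a background of 0.134% (0.0465% higher and 0.0872% lower in C2), and 10 (7.30%) had an unadjusted p under 0.05, against 7.94% of all regions. The median there was -0.12, against -0.07 over all regions.

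The number of H3K9me3 calls changed with single libraries and with the scaling. In C3 against OSKM, 1 call was made without OSKM replicate 1, 0 without OSKM replicate 2, 11 without C3 replicate 1 and 9 without C3 replicate 2. Quantile normalization gave 7 receptor genes higher and 2 lower, in place of 1 higher and 6 lower, and 3 of the 7 named genes remained called (Olfr406, Olfr718-ps1 and Olfr1425). Olfr915 and Olfr318 then had log2 fold changes of -0.09 and -0.38. The same 3 genes were called in the authors' deposited table, whereas Olfr212, Olfr318, Olfr1341 and Olfr915 were not, with FDR values there of 0.0586 at Olfr318, 0.0568 at Olfr1341 and 0.191 at Olfr915. In C2 against OSKM, 0 calls were made without OSKM replicate 1 or 2, 20 without C2 replicate 1 and 11 without C2 replicate 2. In C2 against C3 there were 3 calls without C2 replicate 1 and 1 without C3 replicate 1.

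**Figure D2:**
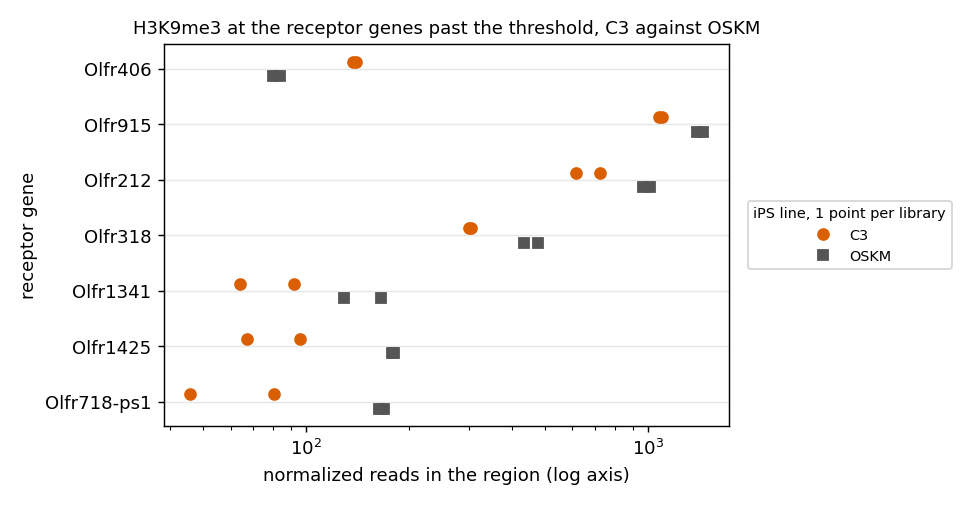
Normalized H3K9me3 reads (log axis) in the region of each of the 7 receptor genes called between C3 (circles) and OSKM (squares), 1 point per library. The C3 libraries lie below the OSKM libraries at 6 genes and above them at Olfr406, from 45.6 normalized reads at Olfr718-ps1 in C3 to 1449.7 at Olfr915 in OSKM.

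H3K27ac near receptor genes was low and in few places. The 56 genes with a peak-backed region had a median of 24.5 normalized reads, against 43.0 over all regions with a peak. Of them 21 (37.5%) had a peak in all 6 libraries, against 36.8% of all such regions. The region overlapped the gene itself in 15 of the 56 genes and a gene outside the family in 7. A peak was called in both libraries of the line for 26 genes in C2, 44 in C3 and 32 in OSKM. At 5 of the 56 the region was nevertheless at 1 read in all 6 libraries, and whether the authors took input reads off the tables' values is not given in the sources used here.

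The regions of strongest H3K27ac lay at or near Olfr1127-ps1, Olfr90, Olfr543, Olfr94, Olfr484 and Olfr147. Olfr1127-ps1 (chr2:87523466-87524369) is a pseudogene 1498 bp from a region of 9904 bp that ends 1200 bp from Pramel6, a gene of the PRAME family. That region held 1919 and 1313 in C3 against 424 and 705 in OSKM (1.54 ± 0.32, adjusted p = 0.0141), so the lines stood apart. In the table of C2 and OSKM it held 814 and 463 in C2 and 390.1 and 648 in OSKM, which overlap. Olfr90 (MOR256-21, chr17:37085191-37086236), the first gene of its cluster, held 1215 and 793 in C3 and 1087 and 1082 in OSKM (-0.14 ± 0.27, adjusted p = 0.726), so its level did not separate these lines. Olfr147 (MOR164-1) also overlapped, with 432 and 243 in C3 and 239.5 and 260.1 in OSKM (adjusted p = 0.397).

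Between C3 and OSKM, H3K27ac was higher at 14 receptor genes and lower at 1, of the 52 that passed the filter on low values. The background was 22% of 101600 regions, 13.5% higher and 8.52% lower, beside 26.9% higher and 1.92% lower of the receptor genes. The filter kept 51 of the 56 genes with a peak and 1 without, so a gene could pass through the line in which it was high, and these shares are no support for a property of the family. The median log2 fold change of the receptor regions was 0.95, against 0.03 over all regions. Median-centring moved the median of all regions by -0.17 and quantile normalization by -0.16, and the receptor medians were then 0.78 and 0.65.

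Among protein-coding receptors, Olfr543 (chr7:102476773-102477902) held 789.7 and 485 in C3 against 248 and 367 in OSKM (1.03 ± 0.30, adjusted p = 0.0461), in a region of 4315 bp over its promoter, 7639 bp from the ribonucleotide reductase gene Rrm1. Olfr94 (chr17:37196806-37197966) held 596 and 506 in C3 against 289 and 262 in OSKM (0.99 ± 0.22, adjusted p = 0.0163), but its region of 4940 bp also overlapped Ubd, which encodes a ubiquitin-like protein. The signal of the receptor promoter and of that neighbour cannot be told apart. Olfr484 (MOR204-16, chr7:108124296-108125261) held 633 and 467 in C3 against 227 and 229 in OSKM (1.25 ± 0.23, adjusted p = 0.010), in a region that overlapped Gm25424. At all 3 genes both C3 libraries lay above both OSKM libraries.

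Olfr153 (MOR177-5, chr2:87532035-87532958), which lies near Olfr1127-ps1, held 372 and 267 in C3 against 138 and 194 in OSKM (0.94 ± 0.27, adjusted p = 0.0427). Its region (chr2:87534455-87537045) lay outside the gene. Olfr926 (MOR171-8) held 197 and 127 in C3 against 65.1 and 64.5 in OSKM (1.27 ± 0.30, adjusted p = 0.0227). Olfr15 (MOR256-17), 4502 bp from the zinc-finger gene Zfp174 by its region, held 122 and 80.7 in C3 against 46.4 and 27.8 in OSKM (1.44 ± 0.40, adjusted p = 0.0379). No C3 library overlapped an OSKM library at these genes. At Olfr718-ps1, where H3K9me3 was lower in C3, H3K27ac was higher over overlapping coordinates, with 329.6 and 296 in C3 against 163 and 146 in OSKM (1.01 ± 0.22, adjusted p = 0.0165). The pseudogene Olfr431-ps1 held 178 and 109 in C3 against 35.3 and 49.6 in OSKM (1.71 ± 0.36, adjusted p = 0.0147). The pseudogene Olfr1498-ps1 held 141 and 62.2 in C3 against 34.2 and 15.9 in OSKM (1.96 ± 0.54, adjusted p = 0.0378). These pseudogenes too had separate lines.

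The remaining higher genes were near the floor in at least 1 OSKM library. Olfr335-ps held 46.0 and 20.7 in C3 and 1 read in both OSKM libraries, at least 10.6-fold higher against a floor of 3 reads per library (adjusted p = 0.0115). Olfr1398-ps1, with 50.2 and 12 in C3 and 1 read in both OSKM libraries, was at least 9.89-fold higher (adjusted p = 0.0230), and its region overlapped Gm30125. Both bounds hold only where a value of 1 is a true count, and whether input reads were taken off is not given. Olfr12 (MOR208-5) held 19.2 and 16.4 in C3, from 23 and 15 reads, against 3.31 and 0.993 in OSKM, from 3 and 1 reads (adjusted p = 0.0432). At Olfr1312 (MOR245-20) the OSKM libraries disagreed, with 245 and 144 in C3 against 1.10 and 39.7 in OSKM (4.35 ± 1.17, adjusted p = 0.0337), so the size of that fold change rests on OSKM replicate 1.

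Olfr70 (MOR262-10, chr4:43695000-43700807) was the sole receptor gene with lower H3K27ac in C3, at 71.1 and 90.5 in C3 against 215 and 177 in OSKM (-1.27 ± 0.26, adjusted p = 0.0144). Its region (chr4:43695582-43696974) lay inside the extent of the gene and 2914 bp from Tmem8b. In the table of C2 and OSKM it held 101 and 126 in C2 and 198 and 162 in OSKM (-0.67 ± 0.25, adjusted p = 0.116). Those libraries did not overlap either, but the difference did not pass the test.

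At all 14 genes higher in C3, C3 replicate 1 lay above C3 replicate 2, and the same library had the higher sums at the pluripotency and endoderm markers. Without it 8 receptor genes were called (6 higher and 2 lower), and 6 of the 15 named genes were among them. Without C3 replicate 2, OSKM replicate 1 and OSKM replicate 2 there were 12, 11 and 13 calls. The genes called without each library in turn were Olfr335-ps, Olfr1398-ps1 and Olfr484. In the authors' deposited table Olfr543 (FDR 0.100) and Olfr153 (FDR 0.119) were not called, and under quantile normalization Olfr1312, Olfr15, Olfr1498-ps1, Olfr1398-ps1 and Olfr12 were not. With median-centred libraries 11 of the 15 were called by limma. Those lost were Olfr543 (adjusted p = 0.0627), Olfr153 (0.0632), Olfr15 (0.0507) and Olfr12 (0.0501). Olfr12 was also not called by edgeR or without the filter on low values.

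**Figure D3:**
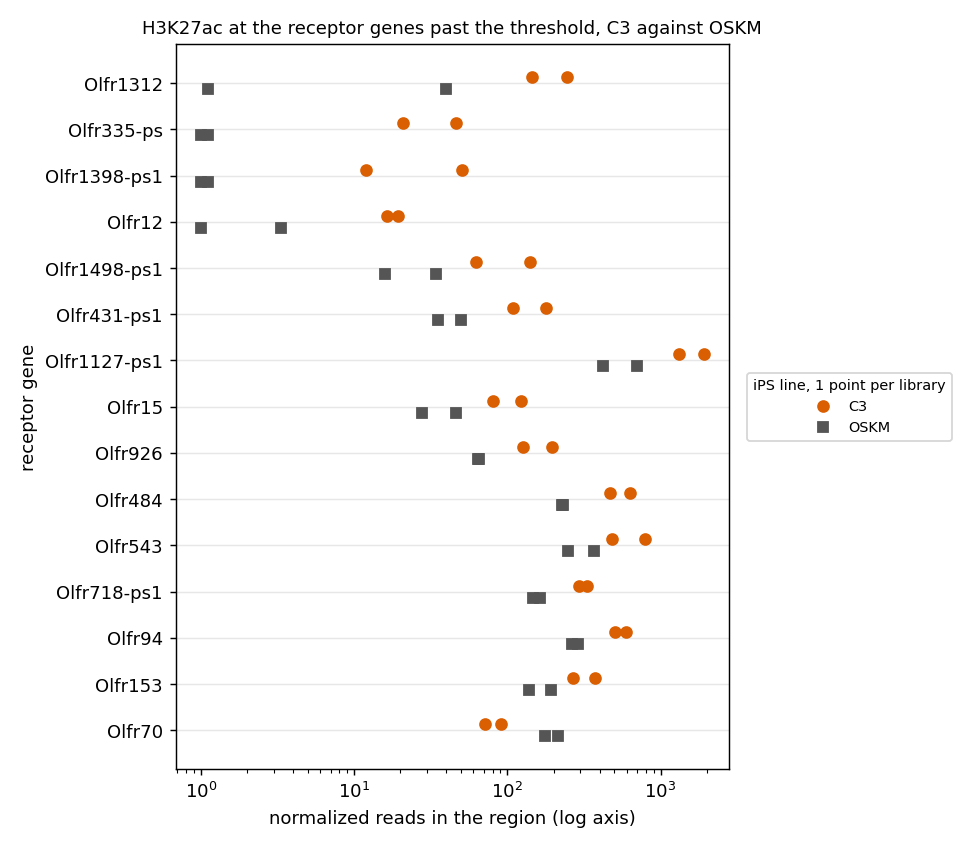
Normalized H3K27ac reads (log axis) in the region of each of the 15 receptor genes called between C3 (circles) and OSKM (squares), 1 point per library. The C3 libraries lie above the OSKM libraries at 14 genes and below them at Olfr70, and the OSKM libraries of Olfr335-ps and Olfr1398-ps1 are at 1 read.

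In C2 against OSKM, H3K27ac was higher at 1 receptor gene and lower at 1, of 51 tested, beside a background of 10.6% of 100957 regions (5.21% higher and 5.38% lower). Olfr1342 (MOR258-3, chr4:118689152-118693034) held 195 and 177 in C2 against 94.5 and 83.1 in OSKM (1.06 ± 0.24, adjusted p = 0.0317). In the table of C3 and OSKM it held 110.4 and 145 in C3 and 103 and 90.4 in OSKM (adjusted p = 0.342). Olfr977-ps1 (chr9:39973879-39974821) held 143 and 158 in C2 against 298 and 298 in OSKM (-0.98 ± 0.21, adjusted p = 0.0272). The region of Olfr1342 (chr4:118685584-118687287) and that of Olfr977-ps1 (chr9:39976807-39978893) lay outside the genes. The groups did not overlap at either gene in the comparison of C2 with OSKM. In the authors' deposited table neither gene was called (FDR 0.0731 at Olfr1342 and 0.0892 at Olfr977-ps1), and Olfr977-ps1 was not called under quantile normalization. Both calls were lost without OSKM replicate 1 (0 calls in all) and without OSKM replicate 2 (3 calls at other genes), and 10 and 7 calls were made without C2 replicate 1 and C2 replicate 2. The median log2 fold change of the receptor regions was 0.41, against -0.01 over all regions, and 0.08 under quantile normalization, which moved the median of all regions by -0.15. The filter left out 7 of the 56 genes with a peak and kept 2 without, so this median too is no support for a property of the family.

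Between C2 and C3, 0 of 55 receptor genes were called in H3K27ac by limma, by edgeR or in the authors' deposited table, beside a background of 0.0581% of 101532 regions (0.0276% higher and 0.0305% lower in C2). An unadjusted p under 0.05 was found at 13 (23.6%), against 12.3% of all regions. The receptor median was -0.53, against -0.06 over all regions, and 16 of the 55 genes had a log2 fold change above 0. The filter left out 5 of the 56 genes with a peak and kept 4 without. A gene could thus pass through the line in which it was high, and these values are no support for a property of the family. At Olfr543 the libraries held 322 and 221 in C2 against 749.5 and 463 in C3 (-1.14 ± 0.34, adjusted p = 0.197). Olfr484 held 336 and 164 in C2 against 601 and 445 in C3 (-1.14 ± 0.36, adjusted p = 0.221). The libraries did not overlap at either gene, and neither passed the test. Without C2 replicate 1 there were 10 calls, all lower in C2, and without C3 replicate 2 there were 4, also lower.

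**Figure D4:**
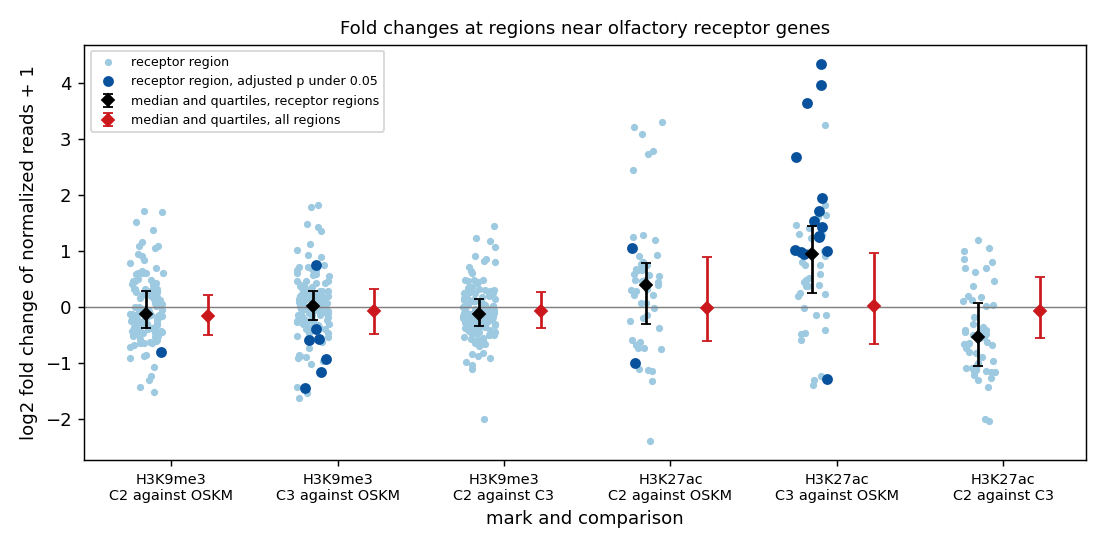
Log2 fold changes (first-named line minus second) at the regions of receptor genes in the 6 comparisons, with called regions in dark blue and medians with quartiles for receptor regions (black) and all regions tested (red). The H3K9me3 medians lie between -0.12 and 0.03 and the H3K27ac medians are 0.41, 0.95 and -0.53, and the fold changes of Olfr335-ps and Olfr1398-ps1 are fitted values against OSKM libraries at 1 read.

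Genes near both marks covered a wide range of H3K9me3. Among the 34, Olfr212, Olfr1388 and Olfr725 had the highest H3K9me3, with mean levels of 675, 442 and 364 normalized reads, and H3K27ac of 14.2, 1.01 and 51.4. At the other end Olfr294, Olfr1495 and Olfr1267-ps1 had H3K9me3 of 1.03, 1.03 and 2.15 and H3K27ac of 10.4, 35.6 and 24.4. A peak was nevertheless called in at least 1 library at each of these H3K9me3 regions, so the low values do not show that the mark was absent. Olfr1388 (chr11:49443853-49444788) had an H3K9me3 region of 10085 bp, with 470.5 and 465 in C3 and 555 and 600.5 in OSKM (-0.30 ± 0.11, adjusted p = 0.115). That region began inside the gene, past the annotated start, and covered only the last 14 bp of the stretch taken as promoter. The H3K27ac region of Olfr1388 was at 1 read in all 6 libraries although a peak was called in 5 of them. Olfr725 held 402 and 378 in C3 and 418 and 571 in OSKM of H3K9me3 (-0.32 ± 0.15, adjusted p = 0.208). At both genes the C3 libraries lay below those of OSKM without passing the test.

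The marked genes were spread over nearly all large clusters. With receptor genes joined into a cluster where they lay at most 500000 bp apart, there were 68 clusters, of which 24 held 10 or more genes (1296 genes in all). H3K9me3 was near 10.6% of all receptor genes. Among the 24 large clusters the share was highest, at 10 of 44 genes (22.7%), in the cluster from Olfr20 to Olfr412 (chr11:73350859-74365609), which holds Olfr401 and Olfr406 and had no H3K27ac region with a peak. The cluster from Olfr24 to Olfr18 on chromosome 9 had H3K9me3 near 10 of 51 genes (19.6%). The largest cluster, 293 genes from Olfr987 to Olfr1274 on chromosome 2, had it near 18 (6.14%). The cluster of 12 genes on chromosome 15 (Olfr288 to Olfr278-ps1) had no region of either mark with a peak.

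H3K27ac regions with a peak lay near 3.94% of receptor genes. They were near 3 of 15 genes (20.0%) in the cluster from Olfr62 to Olfr1328 on chromosome 4, which holds Olfr1341 and Olfr1342, and near 6 of 58 (10.3%) in the cluster from Olfr90 to Olfr136 on chromosome 17, which holds Olfr94. Of the 24 clusters 6 had none. Among the 2 outermost genes on each side of a cluster, H3K27ac was near 6 of 96 (6.25%) and H3K9me3 near 11 (11.5%), and among the 1200 inner genes near 40 (3.33%) and 129 (10.8%). By the classes read from the MOR names, 29 of 148 class I genes and 190 of 1123 class II genes were among the 246, and 27 of 149 without a class. Class I genes were 13 of the 150 near H3K9me3 and 4 of the 56 near peak-backed H3K27ac. Differences between clusters, positions and classes were not tested.

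**Figure D5:**
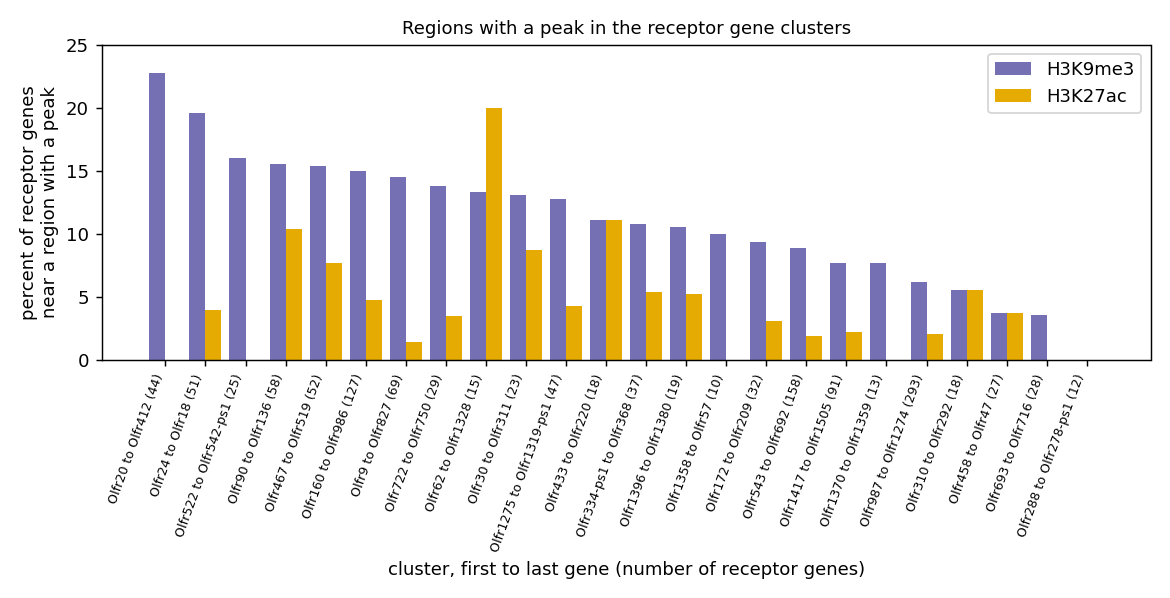
Percent of receptor genes near an H3K9me3 region (purple) or an H3K27ac region with a peak (yellow) in the 24 clusters with 10 or more receptor genes, named by first and last gene with the number of genes in brackets. H3K9me3 reaches 22.7% in the cluster from Olfr20 to Olfr412 and H3K27ac 20.0% in the cluster from Olfr62 to Olfr1328.

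HA peaks near receptor genes were few and were also found in the negative control. An HA peak lay within 2000 bp of 19 and 57 receptor genes in the C2 libraries and of 14 and 28 in the Empty libraries, which carry no HA-tagged factor. These were 1.34% and 4.01% of receptor genes in C2 and 0.986% and 1.97% in Empty. The shares of protein-coding genes were 6.58% and 12.4% in C2 and 6.05% and 8.31% in Empty. Over the whole genome there were 12376 and 44939 HA peaks in C2 and 10666 and 22632 in Empty. The library with the most peaks also had the most receptor genes. The HA libraries were shallow: after duplicates were removed, 2506011 and 3896935 tags were left in C2 and 1707437 and 1629753 in Empty, since the redundant share of tags was 0.92 in each C2 library and 0.93 and 0.94 in Empty. A peak in both C2 libraries was found at 14 receptor genes, of which 7 also had a peak in at least 1 Empty library, and a peak in both Empty libraries at 7. Of the 14, 12 were among the 246 genes, and 6 of these had no peak in either Empty library.

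Those 6 were Olfr301, Olfr851, Olfr928-ps1, Olfr817-ps1, Olfr1372-ps1 and Olfr761. The authors' fold enrichments over input, given here as the peak caller wrote them, were 5.27 and 8.57 in C2 at Olfr301, 5.74 and 6.59 at Olfr851 and 4.76 and 5.93 at Olfr928-ps1. They were 5.74 and 7.25 at Olfr817-ps1, 6.46 and 4.61 at Olfr1372-ps1 and 5.74 and 5.27 at Olfr761. The other 6 genes had a peak in Empty cells as well. Olfr784 had the largest value, 7.03 and 11.1 in C2, against 5.56 in Empty replicate 2. Olfr1055 and Olfr268-ps1 had 7.18 and 5.27 and 6.46 and 7.25 in C2, against 7.94 and 7.15 in Empty replicate 2. Peaks in all 4 libraries lay at Olfr631 (5.74 and 6.59 in C2 against 8.43 and 6.36 in Empty), Olfr165 (5.03 and 7.25 against 5.87 and 7.15) and Olfr183 (7.18 and 6.59 against 5.06 and 6.36). The ranges in C2 and Empty overlapped, and at this depth a site without an Empty peak cannot be shown to differ from one with it.

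Of these 12 genes 11 had an H3K9me3 region, which did not pass the filter on low values at Olfr165, and the others were called in no H3K9me3 comparison. Olfr784 held 473 and 530.0 in C3 and 401 and 414 in OSKM (0.30 ± 0.12, adjusted p = 0.150), and Olfr817-ps1 held 419 and 409 in C3 and 283 and 406 in OSKM (0.29 ± 0.16, adjusted p = 0.317). The C3 libraries lay above those of OSKM at both. In the table with C2, Olfr784 held 337 and 283 in C2 and 359.6 and 378 in OSKM (adjusted p = 0.485) and Olfr817-ps1 245 and 287 in C2 and 254 and 371 in OSKM (adjusted p = 0.659).

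Genes that carry the signal of the receptors, or take part in the choice of a receptor, lie outside the clusters and mostly carried H3K27ac. Of a list of 24, 21 had an H3K27ac region within 2000 bp and 10 an H3K9me3 region. H3K27ac was higher in C3 than in OSKM at 4 (19%) and lower at 3 (14.3%) of the 21, near the background of 13.5% higher and 8.52% lower over all regions tested, so the list is described by its genes and no property of it is read from the count. Adcy3, the cyclase of the cascade, held 448 and 429 in C3 against 209 and 206 in OSKM (1.08 ± 0.21, adjusted p = 0.0110). Ano2, a calcium-gated chloride channel of the cilia, held 325 and 243 in C3 against 97.1 and 60.6 in OSKM (1.86 ± 0.30, adjusted p = 0.00710). Ebf1, a transcription factor that binds receptor promoters in sensory neurons, held 1328 and 936 in C3 against 389 and 339 in OSKM (1.62 ± 0.25, adjusted p = 0.00616). Rtp2, which helps carry receptors to the cell surface, held 258 and 177 in C3 against 115 and 116 in OSKM (0.88 ± 0.26, adjusted p = 0.0486). All C3 libraries lay above those of OSKM at these genes.

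Lower in C3 were Cngb1, Slc24a4 and Pde4a. Cngb1, a subunit of the cyclic-nucleotide-gated channel, held 18.4 and 1.09 in C3 against 129 and 124 in OSKM of H3K27ac (-4.32 ± 0.95, adjusted p = 0.0172), and its H3K9me3 was also lower, at 66.3 and 60.7 in C3 against 154 and 174 in OSKM (-1.35 ± 0.22, adjusted p = 0.00269). Slc24a4, a sodium-calcium exchanger that ends the response, held 139.7 and 199 in C3 against 330.0 and 359 in OSKM (-1.04 ± 0.25, adjusted p = 0.0221), and the phosphodiesterase Pde4a held 5.02 and 51.3 in C3 against 121 and 161 in OSKM (adjusted p = 0.0444), with C3 libraries far apart. Rtp2 was the other gene of the list with lower H3K9me3, at 147 and 147 in C3 against 215 and 233 in OSKM (-0.60 ± 0.17, adjusted p = 0.0419). In C2 against OSKM, Adcy3 and Ano2 were higher in H3K27ac and Cngb1 was lower, and no gene was called in H3K9me3. Gnal held 293 and 235 in C3 and 209.7 and 209 in OSKM (adjusted p = 0.345), and Lhx2, which binds receptor enhancers in sensory neurons, held 15.9 and 19.6 in C3 and 29.8 and 53.6 in OSKM (adjusted p = 0.181). The median of the list in C3 was -0.02, against 0.03 over all regions.

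Of 7 olfactory sensory neuron markers, 5 had an H3K27ac region, and these summed to 923 and 853 normalized reads in C3 and 625 and 665 in OSKM, and to 835 and 626 in C2 and 575 and 612 in OSKM. Adcy3 was the sole marker called in each of these comparisons, and it made up 448 and 429 of the C3 sums and 209 and 206 of the OSKM sums beside C3. Gnal lay above OSKM in both C3 libraries without passing the test. Cnga4 held 148 and 116 in C3 and 152 and 174 in OSKM (adjusted p = 0.410). Gng13 held 27.6 and 73.1 in C3 and 35.3 and 50.6 in OSKM (adjusted p = 0.918). The sums thus do not stand for the markers as a set. Omp, the defining marker of mature sensory neurons, held 6.69 and 1.09 in C3 and 18.8 and 25.8 in OSKM (adjusted p = 0.0721), and Stoml3 and Rtp1 had no H3K27ac region.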

How the data were processed

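The sources were 6 tables of regions, for each mark and pair of lines, and 16 peak lists, of the 22 samples of the series; the 6 inputs were used by the authors as controls. Per the submitters' processing notes, CASAVA 1.8.2, Bowtie2 2.2.5, SAMtools 1.3, DiffBind 1.16.2 and MACS were used with mm10, and handling of reads that match several places, as paralogous receptor genes can cause, is not given in the sources used here. Per the file headers, the authors called peaks per library against input with MACS 2.1.0.20150731 (histone marks) or 2.1.1.20160309 (HA) at a q-value of 0.01. The deposited peak lists hold the pileup signal, the fold enrichment ratio and −log10 p and q values. The deposited tables hold normalized reads per library (a signal), log2 means and log2 fold changes, p-values and FDR by the authors, and the count of libraries with a peak. Values of a library were whole multiples of 1 read within 1e-06, so reads were recovered for edgeR. Tables were normalized by the authors for each pair, so a line's values differ between tables.

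Each gene was given, per mark, the region of highest mean level within 2000 bp. Limma 3.58.1 with trend (R 4.3.3) was fitted to log2(normalized reads + 1) of each table without the 25% of regions of lowest mean, so fold changes of low regions are understated, and p-values were adjusted over all regions tested. On simulated data, 2-fold changes were recovered in 6% (H3K27ac, C2 against C3) to 52% (H3K9me3, C3 against OSKM) of 100 regions and 4-fold changes in 56% to 85% in the same comparisons. False calls were 0.725% to 6.06% of calls. The changed regions were drawn from those above the median level, so recovery at lower regions was not measured. For H3K27ac that median was 22.7 normalized reads over all regions, and the lower quartile of the 56 genes with a peak was 10.7. Alternatives were edgeR 4.0.16, the authors' table, other scalings, filter, pseudocount 8, window, replicate block, and leaving out chromosome 8 or each library. A value at 1 read was compared with a floor of 3 reads. Floors cover counting error only.

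The members and lists were chosen with earlier results of these data known. Named are the called genes of largest fold change per table (up to 8, and here also the other 7 of the 15 called in H3K27ac of C3 against OSKM), the 6 of highest level per mark, the 3 of lowest and of highest H3K9me3 near both marks, those with HA peaks in both C2 libraries, and fixed lists. Of the 246 genes, 152 matched a promoter of the RefSeq table (153 promoters, as Olfr976 has a pair).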

Additional observations from a re-analysis of the deposited data

How the results depend on the processing

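The numbers of called receptor genes moved with the processing, and the cause was not tested. In H3K9me3 of C2 against OSKM, 1 call became 2 in the authors' deposited table (not Olfr212), 0 without the low-value filter, 3 with a pseudocount of 8, 0 under quantile normalization and 0 to 20 without single libraries. In C3 against OSKM, 7 became 1 with a window of 0 bp, which uses fewer genes, and 0 to 11 without single libraries, and of the 7 genes 6 were kept by edgeR, 3 in the authors' deposited table and 3 under quantile normalization. Between C2 and C3, 0 became 1 without the filter and 0 to 3 without single libraries. In H3K27ac of C2 against OSKM, 2 became 5 in the authors' deposited table (neither Olfr1342 nor Olfr977-ps1), 4 by edgeR, 4 with median-centred libraries, 4 without the filter, 1 under quantile normalization, 1 with a window of 0 bp and 0 to 10 without single libraries. In C3 against OSKM, 15 became 9 with a window of 0 bp and 8 to 13 without single libraries, and of the 15 genes 14 were kept by edgeR, 13 in the authors' deposited table and 10 under quantile normalization. Between C2 and C3, 0 became 5 without the filter and 0 to 10 without single libraries. A fit without 1 library leaves a line with a lone library, assumed to vary like the others.

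With the replicate number as a block, H3K9me3 calls were 4, 11 and 1 and H3K27ac calls 7, 18 and 14, in C2 against OSKM, C3 against OSKM and C2 against C3. The deviations of same-numbered libraries correlated at 0.00, 0.04 and 0.11 for H3K9me3 and at -0.05, -0.04 and 0.35 for H3K27ac, and no label ties a number to a culture, batch or day, so pairing was not assumed. Pairing is least clear for H3K27ac of C2 against C3, where the block gave 13 genes lower and 1 higher in C2 in place of 0 calls. Of the alternatives at single named genes, 939 kept direction and side of the threshold, 67 passed it newly and 74 lost it. Depth limits the H3K27ac genes with OSKM at 1 to 3 reads.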

Other observations

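Vomeronasal receptor genes (Vmn1r and Vmn2r), another clustered family of chemoreceptors, were near a region in 216 cases. In C3 against OSKM, their H3K9me3 was higher at 5 and lower at 13 of 153 tested genes (3.27% and 8.5%, against 1.72% and 7.35% over all regions) and their H3K27ac higher at 3 and lower at 2 of 56 (5.36% and 3.57%, against 13.5% and 8.52%). In C2 against OSKM, H3K9me3 was lower at 3 of 151 (1.99%, against 2.9%) and H3K27ac lower at 5 of 52 (9.62%, against 5.38%), with none higher, and between C2 and C3 H3K9me3 was higher in C2 at 2 of 152 (1.32%, against 0.0465%) and H3K27ac was called at 0 of 57 (limma; 10, or 17.5%, at an unadjusted p under 0.05, against 12.3% of all regions). Their median log2 fold change of H3K27ac in C3 against OSKM was 0.10, beside 0.95 for olfactory receptor regions, and a difference between the families was not tested.

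Zinc-finger genes with Zfp symbols, a family of clustered DNA-binding proteins that often carries H3K9me3, had lower H3K9me3 in C3 than in OSKM at 45 of 154 tested genes and higher at 6 (29.2% and 3.90%, against 7.35% and 1.72% over all regions), and lower in C2 at 10 of 155 and higher at 7 (6.45% and 4.52%, against 2.9% and 0.389%). Their H3K27ac was lower in C3 at 32 of 382 and higher at 8 (8.38% and 2.09%, against 8.52% and 13.5%), and lower in C2 at 33 of 381 and higher at 3 (8.66% and 0.787%, against 5.38% and 5.21%). Between C2 and C3, 0 of 155 and 0 of 381 were called in H3K9me3 and H3K27ac (limma; 19 and 14, or 12.3% and 3.67%, at an unadjusted p under 0.05, against 7.94% and 12.3% of all regions). Of the trace amine-associated receptor genes, the chemoreceptors named Taar, 1 was tested in H3K9me3, and it was lower in C3 than in OSKM, with no other Taar call in any comparison.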
